A study of Mus musculus with 6 samples.

Results

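Elastic fibre and matricellular genes were examined as a set of 10: Eln, Fbn1, Fbln1, Fbln2, Fbln5, Fn1, Postn, Tnc, Sparc and Thbs1. They were chosen by function from the 21887 protein-coding genes of the annotation used, and their open regions were taken as the ATAC-seq peaks that overlapped the gene body or the 10 kb on either side. ATAC-seq maps open chromatin with a transposase that cuts and tags accessible DNA. The cells were immortalised mouse atrioventricular cushion mesenchymal cells of a single line, strain H- 2Kb-tsA58 transgenic, which carries a temperature-sensitive viral T antigen, at passage 6. They were held for 48 h in 25 mM glucose (high glucose, 3 libraries) or in 5.5 mM glucose, which was also their maintenance medium (normal glucose, 3 libraries), and the series title places the work in the study of maternal diabetes and congenital heart disease. The libraries are called HG1, HG2 and HG3 in high glucose and NG1, NG2 and NG3 in normal glucose. Their peak lists held 22156, 25020 and 22598 peaks in high glucose, in that order, and 24263, 66 and 40350 peaks in normal glucose. NG2 fell under the minimum of 1000 peaks and held no peak at any of the 10 genes. It entered a single check, of the difference in share with all 6 libraries. All other results rest on 3 high-glucose and 2 normal-glucose lists. Merged across these 5 lists, peaks formed 49048 regions in the genome and 46 at the 10 genes. The lists give no read depth, and the longest list, NG3, alone holds 11560 of the 19459 regions found in a single list.

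Elastic fibres are built from tropoelastin deposited on a scaffold of fibrillin microfibrils, with fibulins linking the parts to each other and to cells. Fibronectin forms the provisional network on which many of these proteins assemble. Matricellular proteins such as periostin, tenascin-C, SPARC and thrombospondin-1 are secreted into the matrix but act mainly on cell behaviour rather than as structural fibres. In the embryonic heart, cushion mesenchyme secretes such a matrix while the cushions remodel into valve leaflets and septa. Over all protein-coding genes, 37.2% had a peak within 1 kb of a start in all 5 lists. Of 10 genes listed as cushion mesenchyme markers 8, among them Sox9, Snai2, Tbx20 and Vim, had such a peak. The others, Twist1 and Prrx1, had a peak near a start in 4 lists and in 1 list. The marker lists were chosen with earlier results of these data known. Of 6 endothelial and 6 cardiomyocyte markers none had a peak near a start in all 5 lists, though the endothelial Kdr had one in 4. Of 4 blood markers 1 did, Spi1. Of 6 epicardial and mesothelial markers 2 did, Wt1 and Upk3b. With lists this short, 1 of 4 and 2 of 6 are near the share over all genes. Whether cells with open epicardial markers bear on the values at the 10 genes was not tested. In bulk ATAC-seq a site open in fewer cells cannot be told apart from one less open in each cell.

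The promoters of Fbln1, Fbln2, Fbln5 and Tnc are shown because an open region reached upstream of their annotated start. Each line gives the 250 bases before the start, from RefSeq on GRCm38.p6 (the coordinates of mm10), 5′ to 3′ along the gene, with capitals where an open region of at least 1 list lay. They are chr15:85205699-85205948, plus strand, for Fbln1, chr6:91212514-91212763, plus strand, for Fbln2, chr12:101819120-101819369, minus strand, for Fbln5 and chr4:64047016-64047265, minus strand, for Tnc.
Fbln1: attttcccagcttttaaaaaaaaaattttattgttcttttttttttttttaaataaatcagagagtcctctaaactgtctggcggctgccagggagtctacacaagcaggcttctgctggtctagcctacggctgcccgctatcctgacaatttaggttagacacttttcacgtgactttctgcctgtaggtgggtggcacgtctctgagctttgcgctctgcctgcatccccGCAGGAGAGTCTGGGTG
Fbln2: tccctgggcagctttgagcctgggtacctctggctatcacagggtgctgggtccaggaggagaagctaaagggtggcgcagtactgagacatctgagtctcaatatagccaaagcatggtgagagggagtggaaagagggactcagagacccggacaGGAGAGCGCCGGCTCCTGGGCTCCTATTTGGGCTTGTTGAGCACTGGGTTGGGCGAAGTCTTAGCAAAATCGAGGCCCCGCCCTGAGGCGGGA
Fbln5: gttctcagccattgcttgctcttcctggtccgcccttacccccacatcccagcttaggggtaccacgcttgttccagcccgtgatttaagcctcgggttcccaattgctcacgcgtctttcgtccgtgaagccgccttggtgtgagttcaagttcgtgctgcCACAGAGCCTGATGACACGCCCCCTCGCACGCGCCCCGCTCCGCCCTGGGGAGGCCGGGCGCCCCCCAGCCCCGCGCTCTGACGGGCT
Tnc: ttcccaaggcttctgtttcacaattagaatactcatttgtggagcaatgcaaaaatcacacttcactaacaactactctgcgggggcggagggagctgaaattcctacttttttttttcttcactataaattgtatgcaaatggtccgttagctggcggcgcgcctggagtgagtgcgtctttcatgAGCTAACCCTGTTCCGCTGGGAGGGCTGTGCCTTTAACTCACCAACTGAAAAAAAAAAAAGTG
The capitals cover 17 bases at Fbln1, 93 at Fbln2, 88 at Fbln5 and 63 at Tnc. Each of the runs ends at the start site, and the region continues into the gene in each case.

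Open chromatin was unevenly spread over the 10 genes. Of the 10 genes 9 had at least 1 open region, as did 72.4% of all protein-coding genes, and Eln, which encodes tropoelastin, had none. A region present in all 5 lists was found at 6 of the 10, against 50% of all protein-coding genes. These 6 were Fbln2 and Sparc, with 3 such regions each, and Fbn1, Fbln1, Fbln5 and Fn1, with 1 each. Tnc, Thbs1 and Postn had regions in up to 4 of the 5 lists but none in all 5. The windows of the 10 genes were longer than most, with a median of 83.9 kb against 37.2 kb over all protein-coding genes, and held a median of 5 regions against 2. Per 100 kb of window the medians were 4.61 regions for the 10 genes and 3.38 for all genes. Sparc, at 15.2 regions per 100 kb, and Thbs1, at 14.2, were the most densely covered of the 10, and Postn, at 1.93, the least of the 9 with any region. These densities count a region of any list. Of the 7 Sparc regions 1 was in a single list, and of the 5 Thbs1 regions 3 were.

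**Figure D1:**
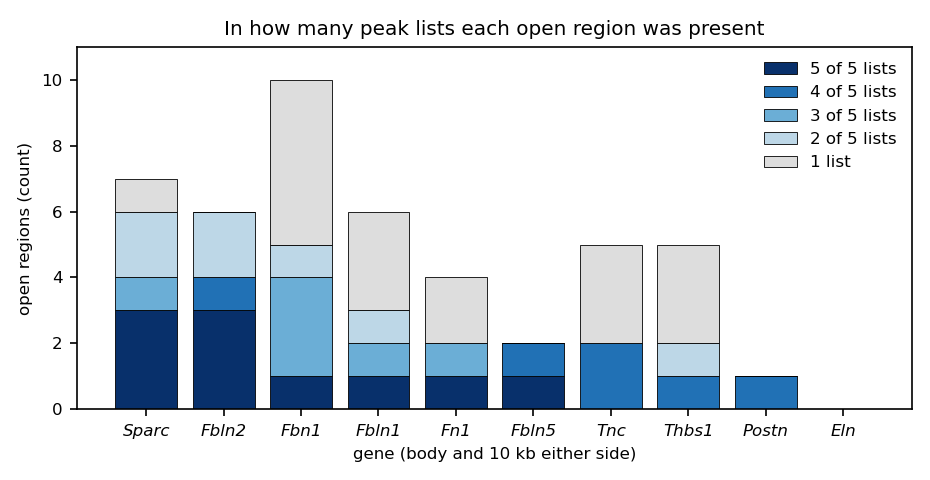
Number of open regions at each gene (body and 10 kb either side), stacked by the number of the 5 peak lists in which a region was present. Sparc and Fbln2 carry 3 regions of all 5 lists each, Fbn1 has 10 regions of which 1 was in all 5, and Eln has none.

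Of the 46 regions 10 were present in all 5 lists, or 21.7%, against 25.1% of all regions in the genome. Another 6 were in 4 lists, 6 in 3, 7 in 2 and 17 in 1 list, and the last of these made up 37.0% against 39.7% of all regions. Of the 17 single-list regions 11 were in NG3, which is 23.9% of the 46 against 23.6% of all regions. All 3 shares were near those of the whole genome. The 10 regions of all 5 lists had a median width of 293 bp, and the other 36 had a median of 134.5 bp. Over the whole genome the corresponding medians were 319 bp and 128 bp. A region spans all of its merged peaks, so regions of more lists are wider in part by construction. Near a start, within 1 kb, lay 5 of the 10 and 9 of the 36, while genome-wide the shares were 60.7% and 21.4%. Where no start was listed, as at Fn1 and Thbs1, either gene end counted, so some of these regions may lie at the far end of a gene.

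Strength within a list was described by the percentile of a peak among the nuclear peaks of that list, ranked by the authors' −log10 p, where 100 is the strongest. Where a list held more than 1 peak in a region, the strongest was used, as in HG2 at the Fbln5 start, with 2 peaks in 1 region. Lists of different length give percentiles on different scales, so these describe the order within a library and show no change between libraries. The 10 regions present in all 5 lists had median percentiles of 65.9, 64.3 and 71.1 in HG1, HG2 and HG3, and of 50.3 and 82.4 in NG1 and NG3. For all 12321 regions of that kind in the genome the medians were 70.9, 74.2 and 71.1 in the high-glucose lists and 72.4 and 83.8 in the normal-glucose lists. The members thus stood at the genome's median in HG3 and near it in NG3, and furthest below it in NG1. Of the 10 regions 6 had their lowest percentile in NG1, where 26.0% of all such regions in the genome had theirs. Fbln2 and Sparc hold 3 of the 10 each, so the regions are not independent of one another.

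**Figure D2:**
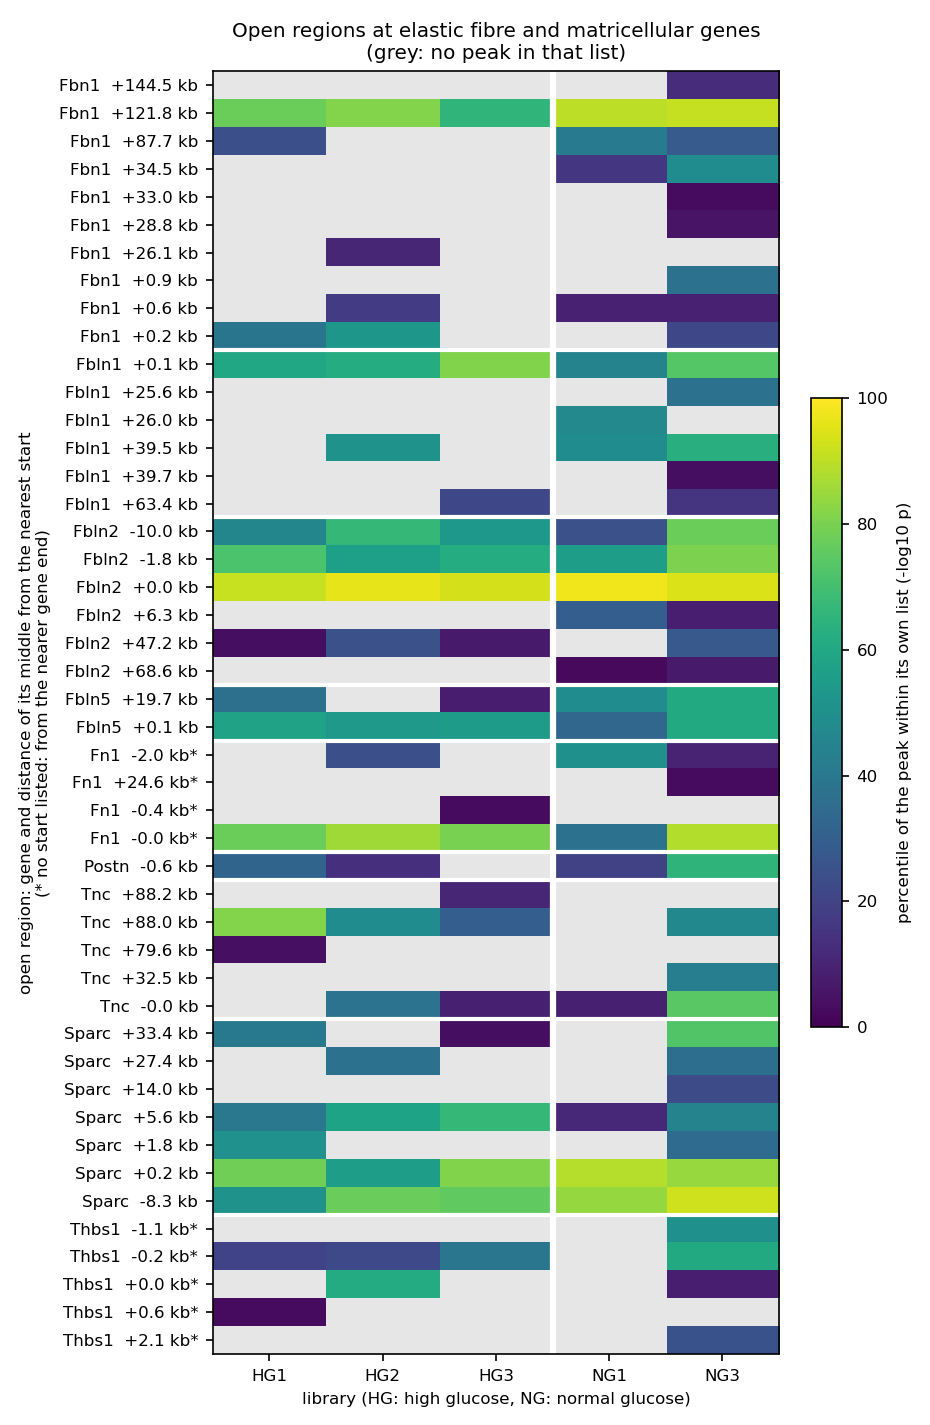
Percentile of the peak within its own list (colour) for each of the 46 open regions (rows, with the distance of the region's middle from the nearest start or, for Fn1 and Thbs1, from the nearer gene end) in the 3 high-glucose and 2 normal-glucose lists (columns). Grey marks a list with no peak there. The Fbln2 start is the brightest row in every list, and NG3 fills 40 of the 46 rows.

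Among the structural genes of the elastic fibre, Eln stood apart. Its body and flanks, chromosome 5, 134702595 to 134747368 with 10 kb either side, held no peak in any of the 5 lists. Just beyond, 13.3 kb from the gene, a region at chr5:134688548-134689314 that overlaps Limk1, a gene for a kinase that controls actin turnover, stood at the 99.9, 99.8 and 99.0 percentile in HG1, HG2 and HG3 and at the 99.9 and 99.9 percentile in NG1 and NG3. The nearest region was therefore among the strongest of every list. The lack of peaks thus covered the Eln window and not its wider neighbourhood.

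Fbn1, which encodes fibrillin-1, the main protein of microfibrils, had the most regions, 10 over a window of 225.9 kb. Its one region in all 5 lists lay deep in the gene at chr2:125384491-125384733, 121.8 kb from the start. It stood at the 77.5, 81.5 and 65.2 percentile in HG1, HG2 and HG3 and at the 90.2 and 91.4 percentile in NG1 and NG3. This inner site ranked above the median of every list. Within 1 kb of the start lay 3 separate regions, and no single one was in all 5 lists. The one closest to the start, chr2:125506143-125506432, stood at the 38.9 and 53.0 percentile in HG1 and HG2 and at the 21.7 percentile in NG3, and had no peak in HG3 or NG1. HG3 had no peak at all near the Fbn1 start.

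The 3 fibulin genes were all open at their start in every list. Fbln2, whose fibulin is laid down in the cushions during epithelial-to-mesenchymal transition, had the strongest region of the whole set at chr6:91212671-91212895, centred 19 bp from the start. Its percentile was 91.6, 96.1 and 93.6 in HG1, HG2 and HG3 and 97.8 and 94.9 in NG1 and NG3. The authors' fold enrichment of that peak was 12.7, 16.8 and 14.4 in the high-glucose lists and 16.3 and 14.7 in the normal-glucose lists. In each of the 5 lists the peak ranked above every other peak at the 10 genes. Upstream, 1.78 kb from the start, a second region at chr6:91210855-91211122 stood at the 71.8, 56.5 and 61.8 percentile in HG1, HG2 and HG3 and at the 55.8 and 80.2 percentile in NG1 and NG3. The third region in all 5 lists, chr6:91202664-91202932, lay 9.97 kb upstream, at the edge of the window. It held the 45.8, 66.7 and 53.5 percentile in HG1, HG2 and HG3 and the 24.8 and 77.4 percentile in NG1 and NG3. The next region beyond it, chr6:91202118-91202309, fell 151 bp outside the window and was in 4 of the 5 lists, so the 10 kb limit divided a pair of neighbouring sites.

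Fbln1 encodes a fibulin that binds fibronectin and basement membrane proteins. Its start region at chr15:85205932-85206248 stood at the 60.1, 62.0 and 81.0 percentile in HG1, HG2 and HG3 and at the 44.7 and 73.6 percentile in NG1 and NG3. It was the sole Fbln1 region in all 5 lists. Inside the gene, 39.5 kb from the start, chr15:85245376-85245637 was at the 51.2 percentile in HG2 and at the 48.8 and 62.7 percentile in NG1 and NG3, with no peak in HG1 and HG3. Fbln5, whose product tethers elastin to microfibrils and to integrins on cells, had only 2 regions. The start region, chr12:101818839-101819207, stood at the 57.8, 54.3 and 55.1 percentile in HG1, HG2 and HG3 and at the 32.9 and 60.9 percentile in NG1 and NG3. It ranked above the median of every list but NG1. The other, 19.7 kb into the gene, was in all lists but HG2. A further region of all 5 lists lay 465 bp outside the Fbln5 window.

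Fn1 encodes fibronectin. At the higher-coordinate end of the gene it had a region of 544 bp, chr1:71652996-71653539, which also reached into the non-coding gene Apol7d. It stood at the 77.6, 85.6 and 79.7 percentile in HG1, HG2 and HG3 and at the 37.6 and 88.5 percentile in NG1 and NG3. In NG1 it ranked below the median of its list, and in the other 4 lists above it. NG1 held 3 peaks over 2 regions at Fn1, so a percentile in NG1 may be that of the stronger of separate peaks. At the opposite end, 1.96 kb outside the gene, another region was in HG2, at the 24.6 percentile, and in NG1 and NG3, at the 50.1 and 9.40 percentile.

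The matricellular genes differed widely among themselves. Sparc, which encodes a collagen-binding glycoprotein, had 7 regions, 3 of them in all 5 lists. The region just inside the start, chr11:55419697-55420045, stood at the 78.3, 55.7 and 81.0 percentile in HG1, HG2 and HG3 and at the 89.1 and 84.5 percentile in NG1 and NG3. Upstream, 8.28 kb from the start, chr11:55428145-55428572 stood at the 51.5, 77.2 and 75.5 percentile in the high-glucose lists and at the 84.1 and 92.9 percentile in the normal-glucose lists. Both sites ranked above the median of every list. The third, 5.61 kb into the gene at chr11:55414368-55414566, had percentiles of 40.1, 57.9 and 66.6 in HG1, HG2 and HG3 and of 11.3 and 44.7 in NG1 and NG3. It ranked below both of the others in every list but HG2, where it stood slightly above the start region.

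Tnc encodes tenascin-C, a large glycoprotein of remodelling matrix. Its start region, chr4:64046848-64047078, had no peak in HG1, stood at the 38.2 and 8.89 percentile in HG2 and HG3 and at the 8.77 and 74.5 percentile in NG1 and NG3. It was weak in 2 of its 4 lists, and its DNA also lies in the non-coding gene 8030451A03Rik. Past the far end of Tnc, 88.0 kb from the start, chr4:63958808-63958968 stood at the 81.3, 48.8 and 30.1 percentile in HG1, HG2 and HG3, was absent from NG1 and stood at the 46.9 percentile in NG3. Thbs1, which encodes thrombospondin-1, an activator of latent TGF-beta, showed the same presence pattern. At its lower-coordinate end, chr2:118111646-118111786 stood at the 20.2, 22.0 and 39.2 percentile in HG1, HG2 and HG3, was absent from NG1 and stood at the 60.8 percentile in NG3. NG1 held no peak anywhere in the Thbs1 window. Postn, which encodes periostin, a matricellular protein of maturing cushions and valves, had 1 region only, chr3:54358552-54358707, 0.638 kb upstream of its start. It stood at the 32.1 and 13.9 percentile in HG1 and HG2, was absent from HG3 and stood at the 19.3 and 65.1 percentile in NG1 and NG3.

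**Figure D3:**
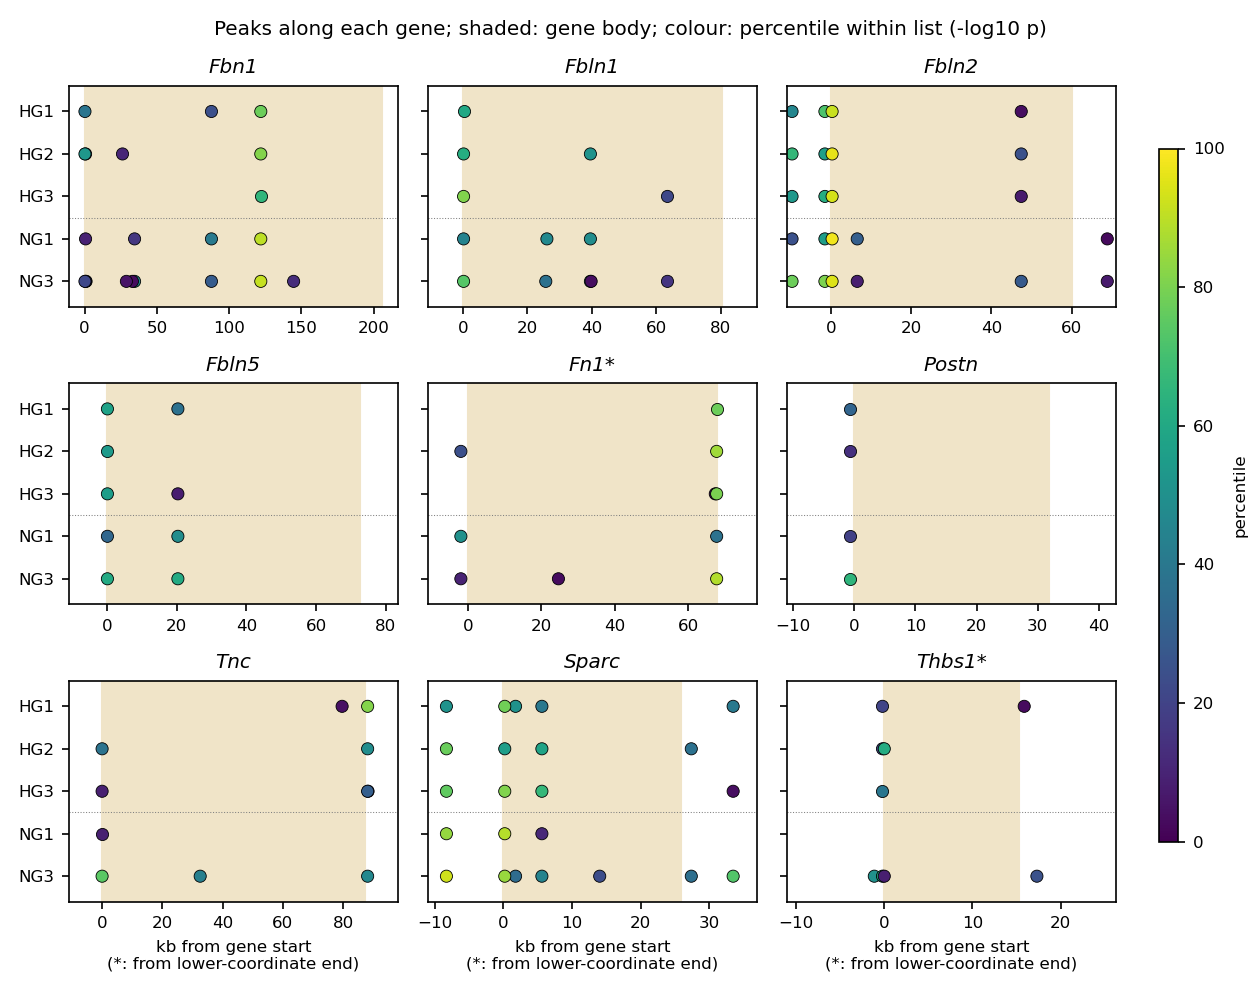
Position of each open region along the 9 genes with any region (horizontal axis, kb from the gene start in the direction of the gene, or from the lower-coordinate end for Fn1 and Thbs1, gene body shaded). A dot in a row (high glucose above normal glucose) marks a list with a peak in the region, coloured by percentile within the list. Dots of a region are all drawn at the middle of the merged region, so their alignment between rows carries no information. Fbln1, Fbln2, Fbln5 and Sparc have a dot at the start in all 5 rows, while the strongest Fbn1 site lies 121.8 kb inside the gene.

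The design asks whether glucose changed which sites were open. No region at the 10 genes was present in all 3 high-glucose lists and absent from both normal-glucose lists, where 0.167% of all regions were. The reverse pattern, both normal-glucose lists and no high-glucose list, was found for 3 of the 46, or 6.52%, against 3.73% of all regions. These 3 were at 2 genes, Fbn1 and Fbln2, and 7.53% of all protein-coding genes had such a region in their window. The Fbn1 region, chr2:125471897-125472009, lay 34.5 kb into the gene and had no high-glucose peak, and its percentiles were 15.9 and 48.8 in NG1 and NG3. The first Fbln2 region, chr6:91218951-91219144, lay 6.28 kb into the gene, with percentiles of 30.0 and 8.48 in NG1 and NG3. The second, chr6:91281267-91281469, lay past the far end, with percentiles of 2.42 and 7.12. All 3 ranked below the median of both normal-glucose lists, and the last was among the weakest peaks of either.

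This count depended on list length. When every list was kept to its strongest 22149 nuclear peaks, 34 regions remained at the 10 genes, 9 of them in all 5 lists, or 26.5% against 30.1% of all regions. Of the 3 normal-glucose regions only the one in Fbn1 was then still specific, and 1 region became specific to high glucose, so the counts were 1 for high glucose and 1 for normal glucose. The shares over all regions at that length were 0.945% for high glucose and 1.60% for normal glucose. The high-glucose one was the inner Fbln2 site 47.2 kb from the start, chr6:91259809-91260037 with lists as deposited, where it stood at the 3.78, 24.9 and 7.37 percentile in HG1, HG2 and HG3, was absent from NG1 and stood at the 27.8 percentile in NG3. Leaving out NG3 gave 3 high-glucose-specific regions, this one and those at Tnc and Thbs1 described above, and the share over all regions was then 3.10%. Leaving out NG1 gave 14 normal-glucose-specific regions, while the share over all regions was 28.6%. Leaving out HG2 gave 6, with 6.45% over all regions.

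The share of each list that lay at the 10 genes showed no detectable difference between high and normal glucose. HG1, HG2 and HG3 had 21, 23 and 19 peaks there, or 0.0948%, 0.0920% and 0.0841% of their nuclear peaks. NG1 and NG3 had 22 and 40 peaks, or 0.0907% and 0.0992%. The 2 ranges overlapped. The mean was 0.0903% ± 0.00554 over the high-glucose lists (SD, n = 3) and 0.0949% ± 0.00597 over the normal-glucose lists (SD, n = 2), a difference of -0.00464 percentage points (p = 0.6, two-sided exact permutation test over libraries, smallest possible p 0.2). With lists of equal length the sign turned, to 0.00527 points (p = 0.6, exact permutation test). With gene bodies alone, without flanks, the difference was -0.00836 points (p = 0.2, exact permutation test, the smallest possible). Nothing in the labels says that replicates were separate cultures, so the p-values speak only of the variation among these 5 libraries, part or all of which may be technical. Counting error alone spanned 0.0620% to 0.145% for HG1 (95% Wilson interval), which is wider than the spread between libraries.

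**Figure D4:**
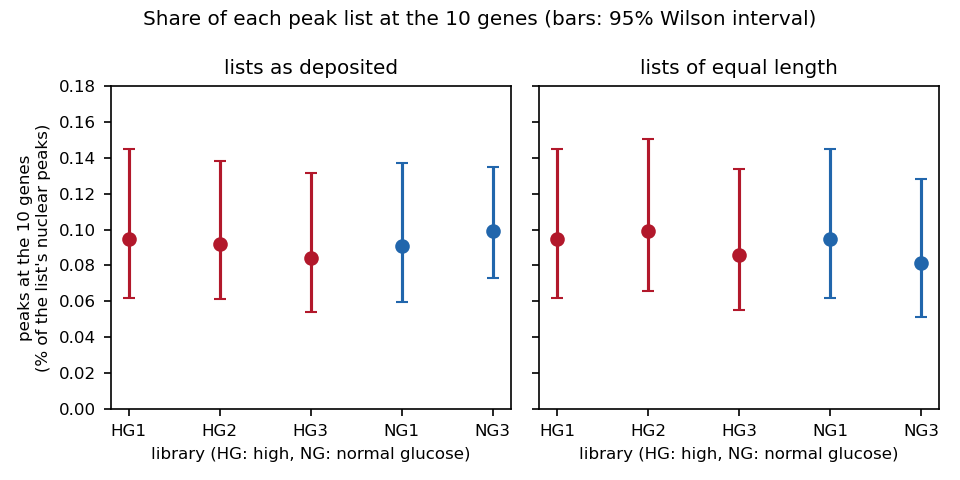
Peaks at the 10 genes as a percent of the nuclear peaks of each list, for the 3 high-glucose (red) and 2 normal-glucose (blue) libraries, with lists as deposited (left) and cut to 22149 peaks (right). Bars are 95% Wilson intervals, which cover counting error only and overlap throughout.

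At their annotated start, within 1 kb, 5 of the 10 genes had a peak in all 5 lists, as did 37.2% of protein-coding genes. They were Fbln1, Fbln2, Fbln5, Sparc and Fn1, the last judged by its gene ends. By library 8, 9 and 7 of the 10 were open in HG1, HG2 and HG3 and 8 and 9 in NG1 and NG3. Which genes were missing changed from list to list: Tnc in HG1, Fbn1 and Postn in HG3 and Thbs1 in NG1. Each of these 4 genes was open at its start in the other 4 lists, with Thbs1, like Eln, judged by its gene ends. Only Eln, of the 10, lacked such a peak in every list, as did 46.8% of protein-coding genes.

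Sequence around the starts was compared over the RefSeq promoter windows, 300 bases from 250 before to 50 after a start. They were listed for 7 of the 10 genes, with 11 windows among them. Fbln1 and Fbln5 each had a window of 24 CpG dinucleotides, against a median of 7 over all 32851 windows. The other Fbln1 window held 12, and the other Fbln5 window, which no peak of any list reached, held 8. The windows of Tnc held 16 and 10, that of Fbn1 14 and that of Fbln2 10. The windows of Postn, whose peak lay further upstream, held 4 and 5. That of Sparc held 4 and was reached by a peak in 3 of the 5 lists, while all 5 had a Sparc peak within 1 kb of the start. Of 5 short motifs searched on both strands, the GC box GGGCGG was in 6 of the 11 windows and in 35.7% of all windows. At Fbln2 a GC box on the opposite strand begins 16 bases before the start, within the capitals printed above, and at Fbln5 another begins 48 bases before, also within the capitals. The TATA box TATAAA was in 3 of the 11 windows, of Postn and Tnc, and in 13.6% of all, and at Tnc the one 126 bases before the outer start lay outside the capitals. CCAAT was in 2 of the 11 and in 37.4% of all. TGACTCA, bound by AP-1, and GGAATG, bound by TEAD factors, were in none of the 11 and in 5.20% and 14.7% of all windows. Several windows overlap, and a match is a description of letters and not of a bound site.

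Partner genes of the same pathways were open to varying degrees. Over all protein-coding genes 72.4% had an open region, 50% had one in all 5 lists and 37.2% were open at a start in all 5. Of 18 elastic fibre and microfibril partners 15 had an open region, 12 had one in all 5 lists and 4 were open at a start in all 5. Those 4 were Ltbp1, which binds latent TGF-beta into microfibrils, Efemp1 and Efemp2, which encode fibulins, and Lox, the elastin and collagen cross-linking enzyme. Ltbp1 had the most regions, 14, and Mfap2, Fbln7 and Adamtsl2 had none, like Eln. Of 20 other matricellular genes 19 had an open region, 12 had one in all 5 lists and 3 were open at a start in all 5. Those 3 were Ccn2, a connective tissue growth factor and YAP target, Ccn4, and Ecm1. Tnr, a tenascin of the nervous system with a long gene, had the most regions, 12, and Tnn, another tenascin, had none. None of these 38 partner genes held a high-glucose-specific region, against 0.42% of all protein-coding genes. A normal-glucose-specific region was found at 5 of the 38, against 7.53% of all protein-coding genes. They were Ltbp1 and Ltbp3 among the microfibril partners and Tnr, Smoc2 and Ecm1 among the matricellular genes. The windows of Ltbp1, Tnr and Smoc2 were long, at 407.0, 428.0 and 145.3 kb, against a median of 37.2 kb over all genes. Those of Ltbp3 and Ecm1 were 37.6 and 25.7 kb. The count was not adjusted for window length.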

How the data were processed

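Peak lists of ATAC-seq libraries from 54000 cells each were analysed, 1 list per library. Per the submitters' processing notes, the build was mm10 and the tools were MACS2 2.1.0, Bowtie 1.0.0, Picard 1.90, cutadapt 1.0, DiffBind 1.12.3, SAMtools 0.1.19, edgeR and FastQC, with no role or setting stated. Transposase shifting and duplicate removal are not given in the sources used here. Each deposited list holds, per peak, a score, a fold enrichment ratio, −log10 p and −log10 q (lowest 1.30) and the summit, as the authors' caller wrote them, with no counts. Depth is thus unknown.

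The labels gave groups and replicate numbers. Nuclear peaks (chromosomes 1 to 19 and X and Y) were merged where they overlapped by at least 1 bp, checked against bedtools 2.31.1. The code for merging and calling was run on simulated, well-separated peaks, which checks the code and not the calls on these lists. A region was specific when all lists of one condition and none of the other held it. Starts came from RefSeq (GRCm38.p6), and both gene ends were used for Eln, Fn1 and Thbs1 and for the other genes with no start listed (4395 in all). Means over libraries were compared by exact permutation tests. All 10 genes are named. The genes and lists were chosen with earlier results of these data known. Computations used Python 3.11.15 with pandas 2.3.3, numpy 2.4.6, matplotlib 3.10.9 and SciPy 1.17.1.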

Additional observations from a re-analysis of the deposited data

How the results depend on the processing

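Settings tried were lists of equal length, a stricter −log10 q (5 or more), a window of the gene body alone or with 50 kb either side (for starts 250 bp or 2.5 kb), summits only, merging within 200 bp and each library left out. The number of genes open at their start in all lists stayed at 4 to 5 in the settings that kept all libraries and spanned 5 to 7 with 1 library left out. The count of regions in all lists was 22 with 50 kb either side, 7 to 10 in the other settings that kept all libraries, and 10 to 13 with 1 library left out, where fewer lists had to hold a peak. High-glucose-specific regions numbered 1 with equal lengths, and 0 to 3 with 1 library left out, the 3 without NG3, where the share over all regions spanned 0.327% to 3.10%. Normal-glucose-specific regions numbered 1 with equal lengths, 1 at the stricter −log10 q (an inner Fbln5 site, with 4.13% over all regions) and 3 to 14 with 1 library left out, where the share over all regions spanned 5.29% to 28.6%. The difference in share, -0.00464 points as reported, reversed to 0.0109 at the stricter −log10 q and to 0.00527 with equal lengths. With all 6 libraries it was 0.0270, where NG2 entered with 0 peaks at the 10 genes among its 52 nuclear peaks. A list of that length is too short to measure such a share, so no conclusion is drawn from that value. With 1 library left out the difference lay between -0.00886 and -0.000411. It was -0.00836 with gene bodies alone and -0.00488 with 50 kb either side (p = 0.2 each, exact permutation test, the smallest possible). For the stricter −log10 q the cause was not tested. Replicate numbers gave 2 pairs, too few to check a pairing. As a replicate block the paired difference was -0.00547 points (p = 1, exact permutation test), with 0.00411 in pair 1 and -0.0150 in pair 3. Depth is unknown, so a site without a peak is not shown to be closed.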
